A study of Mus musculus with 20 samples.

Results

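CpG methylation was compared between CD34- late promyelocytes of PML-RARα transgenic mice (5 libraries) and of wild-type (WT) control mice (5 libraries), 10 of the 20 libraries of the study. The libraries were chosen by their labels. The mice of both groups were on the FVB/n background, and the cells of both groups were labelled CD34 negative. The other 10 libraries, 5 of each genotype, came from the CD34+ early promyelocytes and are used here to set values side by side. The labels do not name the promoter that drives the transgene, the age of the mice, the other surface markers of the sort, or whether each library came from its own mouse. P-values therefore measure the spread between these libraries, which may be technical in part.

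The PML-RARα protein joins the promyelocytic leukaemia protein PML to the retinoic acid receptor RARα and is the initiating lesion of acute promyelocytic leukaemia. It binds DNA at sites related to the paired half-sites of retinoic acid receptors and recruits corepressors, and it has been reported to recruit DNA methyltransferases as well. Promyelocytes are the granulocyte precursors that make the primary granules, and the loss of CD34 marks the later ones. DNA methylation at CpG dinucleotides is sparse in CpG-rich promoters of normal cells, high in most of the remaining genome, and intermediate at many enhancers. Enhanced reduced representation bisulfite sequencing (ERRBS) reads restriction fragments that are rich in CpG after bisulfite treatment. The treatment turns unmethylated cytosines to T in the reads and leaves methylated ones as C. A methylation level below is the percent of reads that carry C among those that carry C or T.

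The methylation of late promyelocytes with the transgene was close to that of WT cells. Of 3243062 autosomal cytosines listed in at least 1 library, 1843096 had at least 10 reads in at least 4 of the 5 libraries of each CD34- group. Reads were summed within consecutive 1 kb stretches of mm9, and those with 3 or more kept cytosines were used, which gave 135242 windows with a median of 5 cytosines. In 87.0% of the windows the 2 group means lay within 5 percentage points of each other, and in 97.6% within 10 points. A single window, on chromosome 13, was called, which means that its adjusted p was below 0.05 and that its group means lay at least 10 points apart (0.000739% of the windows). It was lower in PML-RARα cells. A single cytosine, on chromosome 11, was called (5.43e-05% of the cytosines) and was also lower. No promoter was called among 10725 (0% called).

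The mean level over the kept cytosines was 34.99% and 35.49% in the lowest and the highest PML-RARα library, and 35.02% and 35.60% in the lowest and the highest WT library. The ranges overlapped. The group means were 35.16% ± 0.201 for PML-RARα and 35.35% ± 0.208 for WT (SD, n = 5 each), a difference of -0.186 points (exact permutation test of the 10 libraries, two-sided, p = 0.190). The sign was the same within the flowcells that held both genotypes. The difference was -0.127 points on the flowcell with 3 PML-RARα and 2 WT libraries and -0.261 points on the one with 2 and 1. Windows were also grouped by their level in the CD34+ libraries. Windows below 20% had a mean of 2.83% ± 0.0960 in PML-RARα and 2.87% ± 0.120 in WT libraries. Windows of 20 to 80% had 56.8% ± 0.598 and 56.9% ± 0.795, and windows above 80% had 91.5% ± 0.250 and 91.5% ± 0.293. Among 25 such classes by level, by number of cytosines and by chromosome, the smallest p of the exact permutation test was 0.190, for chromosome 17 (adjusted p = 0.926). Its mean was 65.12% in PML-RARα and 65.35% in WT libraries.

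The spread between libraries was larger in PML-RARα than in WT cells at most windows of intermediate level, but the library measures of it did not pass the adjusted threshold. At the 23642 windows of 20 to 80% the median SD over the 5 libraries was 7.60 points in PML-RARα and 5.67 points in WT, and the PML-RARα SD was the larger in 69.1% of these windows. The scatter of a library, its median distance from the other libraries of its group at these windows, was 6.08, 7.43, 6.50, 4.39 and 4.83 points in PML-RARα replicates 4, 6, 12, 14 and 20. It was 5.47, 3.57, 3.52, 5.06 and 4.25 points in WT replicates 2, 8, 10, 16 and 18. The ranges overlapped (5.85 ± 1.24 and 4.38 ± 0.874 points; exact permutation test, two-sided, p = 0.0714, adjusted p = 0.196 over 11 library measures). Across windows, the correlation between libraries had a median r of 0.973 within PML-RARα, 0.985 within WT and 0.980 between the groups, over 131409 windows that share their sequence and CpG density.

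A further library measure was the share of cytosines of 30 to 70% in CD34+ libraries that were read as below 5% or above 95%. It was 6.92%, 20.3%, 8.89%, 2.85% and 4.36% in PML-RARα replicates 4, 6, 12, 14 and 20, and 3.09%, 0.741%, 0.546%, 5.36% and 2.87% in WT replicates 2, 8, 10, 16 and 18. PML-RARα replicate 6 had the highest value. It also had the highest total coverage of the 10, 289157822, and the fewest listed cytosines, 1922104. The means were 8.66% ± 6.91 and 2.52% ± 1.97 (exact permutation test, two-sided, p = 0.0556, adjusted p = 0.196). The difference of 6.14 points was 3.23 points without replicate 6 (exact permutation p = 0.0952). With each cytosine thinned to 10 reads they were 12.5% and 5.79%. At CpGs of 30 to 70% the strands differed by a median of 15.3 ± 5.75 points in PML-RARα and 11.4 ± 2.57 points in WT libraries (exact permutation test, p = 0.190, adjusted p = 0.349). Total coverage was between 131888291 and 289157822 in PML-RARα and between 176654001 and 269013583 in WT libraries. Chromosome Y had 196.6 ± 21.8 listed cytosines in PML-RARα and 235 ± 17.8 in WT libraries (exact permutation test, p = 0.0317, adjusted p = 0.196). The part of this scatter in the differences below was not tested, beyond the values without single libraries given beside them.

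**Figure D1:**
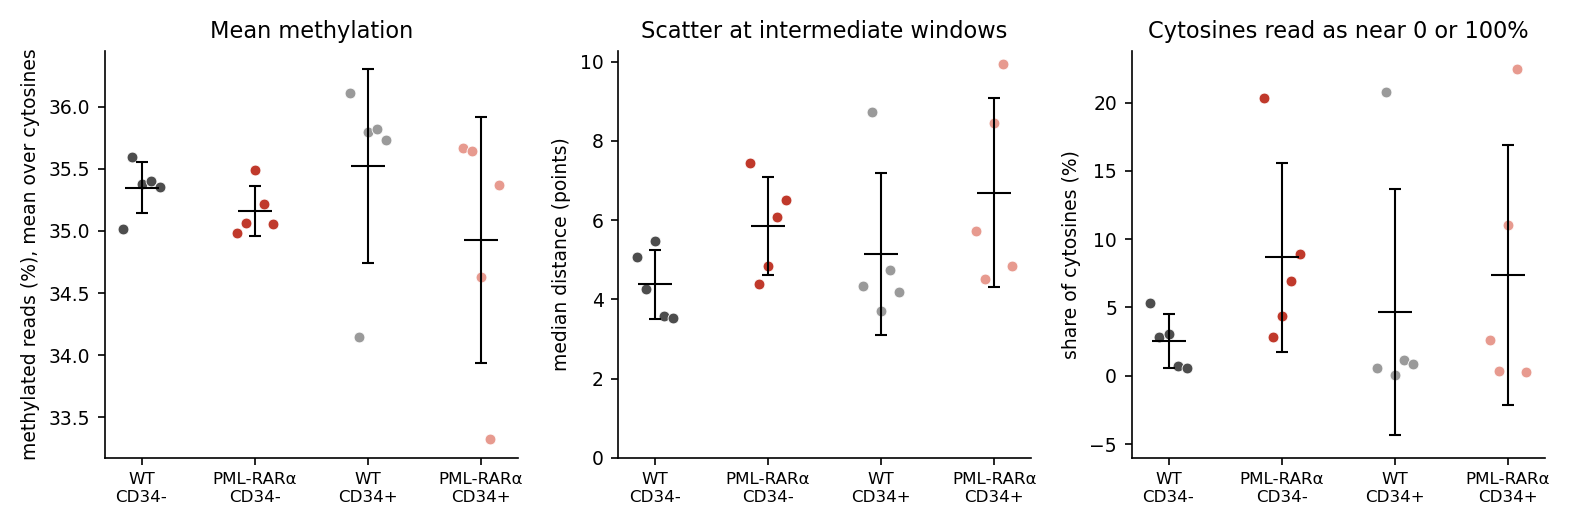
Mean methylation (percent), scatter (points) and share of cytosines of intermediate level read as near 0 or 100% (percent) by library, with the group mean and SD. PML-RARα replicate 6 is highest among CD34- libraries in scatter (7.43 points) and in the share (20.3%).

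Genes are named here where a promoter could be placed on the mm9 positions. RefSeq promoter sequences (250 bases before to 50 bases after a gene's start, GRCm38.p6) were matched by the spacing of their CpGs to the deposited cytosine positions, and 11222 of 31396 promoters on autosomes were kept. Of these, 10725 promoters of 9424 genes had enough coverage to be tested. Most promoters held almost no methylation. The median WT level was 0.122%, and 93.1% of promoters had a WT level below 5%. For comparison, the methylated share of mitochondrial reads was 0.111% in PML-RARα and 0.120% in WT libraries. Windows of 30 or more cytosines below 2% in CD34+ libraries had pooled levels of 0.327% and 0.338%. Many promoter levels below are near or under these values. Whether levels this low are methylation or unconverted cytosines was not tested. At an unadjusted p below 0.05 there were 1045 promoters (9.74%), of which 671 were lower (6.26%) and 374 higher (3.49%) in PML-RARα cells. Without PML-RARα replicate 6 the counts were 442 lower and 377 higher, so that the lower promoters made up 53.97% of those below 0.05 in place of 64.21%. The smallest adjusted p over all promoters was 0.251. The median difference over all promoters was -0.0107 points.

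The promoters on which the account below turns are printed 5′ to 3′ on the strand of the gene, from 250 bases before to 50 bases after the start. Capitals mark the CpGs at which at least 1 strand was measured. Rarb encodes the retinoic acid receptor β, a classical target of retinoic acid and of PML-RARα, and is shown for the paired half-sites in its promoter (chr14:17407941-17408240, minus strand). Cbfa2t3 encodes a corepressor of the ETO family, and its promoter had the smallest p of all (chr8:125222960-125223259, minus strand). Gata2 encodes a transcription factor of progenitor cells (chr6:88143635-88143934, plus strand). Wt1os is the transcript opposite to the Wilms tumour gene Wt1 (chr2:104966618-104966917, minus strand). Il11 encodes interleukin 11 and is shown as a promoter with high methylation (chr7:4729694-4729993, minus strand).
Rarb: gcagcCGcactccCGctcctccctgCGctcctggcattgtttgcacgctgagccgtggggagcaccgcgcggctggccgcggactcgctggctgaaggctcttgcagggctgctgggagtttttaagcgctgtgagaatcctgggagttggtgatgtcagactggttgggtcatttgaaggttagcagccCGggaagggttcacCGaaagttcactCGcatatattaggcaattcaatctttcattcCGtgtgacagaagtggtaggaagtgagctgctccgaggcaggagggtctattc
Cbfa2t3: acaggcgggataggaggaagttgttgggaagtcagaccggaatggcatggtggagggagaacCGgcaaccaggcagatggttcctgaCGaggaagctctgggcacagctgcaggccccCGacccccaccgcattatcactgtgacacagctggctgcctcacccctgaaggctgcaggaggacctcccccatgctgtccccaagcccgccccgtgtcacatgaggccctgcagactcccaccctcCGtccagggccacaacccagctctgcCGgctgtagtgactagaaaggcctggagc
Gata2: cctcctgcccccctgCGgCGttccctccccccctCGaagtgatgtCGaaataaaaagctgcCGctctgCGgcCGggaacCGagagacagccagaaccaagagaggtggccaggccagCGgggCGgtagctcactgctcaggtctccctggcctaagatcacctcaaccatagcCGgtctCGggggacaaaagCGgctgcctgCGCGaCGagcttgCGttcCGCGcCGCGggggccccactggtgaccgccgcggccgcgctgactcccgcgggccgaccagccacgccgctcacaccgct
Wt1os: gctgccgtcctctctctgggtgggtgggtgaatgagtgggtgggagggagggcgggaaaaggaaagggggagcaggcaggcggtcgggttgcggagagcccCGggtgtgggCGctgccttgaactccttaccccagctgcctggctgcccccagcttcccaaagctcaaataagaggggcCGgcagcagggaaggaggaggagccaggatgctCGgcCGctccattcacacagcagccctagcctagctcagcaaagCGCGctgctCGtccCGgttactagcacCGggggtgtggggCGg
Il11: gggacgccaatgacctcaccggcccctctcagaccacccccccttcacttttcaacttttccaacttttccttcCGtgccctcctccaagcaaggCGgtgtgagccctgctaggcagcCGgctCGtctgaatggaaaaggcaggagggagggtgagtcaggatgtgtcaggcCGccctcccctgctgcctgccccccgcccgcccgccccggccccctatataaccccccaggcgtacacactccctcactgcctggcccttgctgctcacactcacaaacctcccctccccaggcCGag

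The Rarb promoter was nearly free of methylation in both groups. Its levels in PML-RARα replicates 4, 6, 12, 14 and 20 were 0%, 0.847%, 1.38%, 0.0932% and 0%. In WT replicates 2, 8, 10, 16 and 18 they were 0.0496%, 0%, 0%, 0% and 0%. The groups overlapped, and the 2 higher values came from replicates 6 and 12. The means were 0.463% ± 0.622 and 0.00993% ± 0.0222 (SD, n = 5 each), with an unadjusted p of 0.0116 and an adjusted p of 0.402. The printed sequence holds the half-sites GGTTCA and AGTTCA as a direct repeat with 5 bases between them, from 53 to 37 bases before the start. The CpG between them, 46 bases before the start, was read at 0.0542% in PML-RARα and at 0% in WT cells. The highest means in PML-RARα cells were 1.20% at the reverse-strand cytosine of the CpG 60 bases before the start and 1.55% at the one 3 bases before it, both with 0% in WT cells.

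The promoters named by rank were those with the 5 smallest p in each direction, and each of the 10 had an adjusted p of 0.251. The lower ones were those of Cbfa2t3, of Samd4 (an RNA-binding repressor of translation), of Stt3b (a catalytic subunit of the oligosaccharyltransferase), of Grip1 (a scaffold of glutamate receptors) and of Clip1 (a protein of growing microtubule ends). In Cbfa2t3 the levels were 0% in PML-RARα replicates 4, 6, 12 and 14 and 0.309% in replicate 20. WT replicates 2, 8, 10, 16 and 18 had 0.0831%, 0.670%, 3.07%, 1.69% and 2.02%. The groups overlapped through WT replicate 2. The WT reads with methylation were most frequent at the CpG 163 bases before the start, with a mean of 4.03% against 0% in PML-RARα cells. The CD34+ libraries had a mean of 0% with the transgene and 0.0140% without it. The other 4 had WT means between 0.145% (Clip1) and 0.743% (Grip1) and PML-RARα means between 0.0276% (Grip1) and 0.0773% (Samd4). Of these 4, Clip1 alone had groups that did not overlap, with at most 0.0501% in PML-RARα and at least 0.100% in WT libraries. The 10 promoters were chosen by p in these same libraries, so a lack of overlap in any of them adds no support. The share without overlap over all promoters is not given here.

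The higher promoters were those of Pax6 (a transcription factor of eye and brain development), Pomgnt1 (a glycosyltransferase of O-mannose chains), Wt1os, Rora (a retinoid-related orphan receptor) and Il11. In Wt1os the levels of PML-RARα replicates 4, 6, 12, 14 and 20 were 2.69%, 6.26%, 5.46%, 4.51% and 2.56%. WT replicates 2, 8, 10, 16 and 18 had 0.625%, 1.502%, 2.11%, 1.13% and 2.06%, so that the groups did not overlap. The means were 4.30% ± 1.65 and 1.49% ± 0.631 (SD, n = 5 each). The difference lay mainly at a pair of forward-strand cytosines 8 and 10 bases after the start, with means of 20.8% and 17.3% in PML-RARα and 3.39% and 5.11% in WT cells. In the CD34+ libraries the Wt1os promoter had 2.50% with the transgene and 2.41% without it. Pax6 had 2.38% ± 1.30 and 0.479% ± 0.246 (SD, n = 5 each), and its groups did not overlap either (1.06% or more against 0.807% or less). Pomgnt1 had means of 0.160% and 0.0475%, also without overlap. Rora had 1.08% and 0.111%, with 0% in PML-RARα replicate 6, so that its groups overlapped.

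Il11 was the highest in methylation of the 10 and differed least in proportion. Its levels in PML-RARα replicates 4, 6, 12, 14 and 20 were 67.1%, 78.1%, 67.5%, 69.0% and 78.9%, against 61.25%, 68.5%, 66.6%, 64.6% and 65.5% in WT replicates 2, 8, 10, 16 and 18. Replicates 6 and 20 were high, and the others fell within or just above the WT range. The means were 72.1% ± 5.89 and 65.3% ± 2.69 (SD, n = 5 each). Its 7 cytosines had WT means from 40.7% to 86.7%, and PML-RARα means were higher at each, by 0.0835 to 7.71 points. Reads are summed over them, so the promoter level also depends on the number of reads at each cytosine. The part of this in the difference was not tested. In the CD34+ libraries the order of the promoter means was the other way, with 69.3% in PML-RARα and 72.6% in WT cells. A search of both strands of all tested promoters for the retinoid half-site AGGTCA found it in 10.1% of them. Their median difference was -0.00527 points, beside -0.0110 points for the promoters without it. Direct repeats of the half-site AGGTCA or of its variants AGTTCA and GGGTCA and GGTTCA, with 1, 2 or 5 bases between the half-sites, were found in 36 promoters (0.336%), and 5.56% of those had an unadjusted p below 0.05, beside 9.76% of the others. Their median difference was 0.00220 points. The sequence GAGGAA, the core of sites of the myeloid factor PU.1, was found in 23.8% of promoters, with a median difference of -0.0127 points beside -0.00989 points without it. Of the printed promoters, Cbfa2t3 holds it at 2 places and Il11 holds AGGTCA once.

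Promoters were also read by gene list, and no promoter of any list passed the adjusted threshold. The lists are described by counts, to be read against the 6.26% lower and 3.49% higher over all promoters. Of the granulocyte transcription factors, 7 of 12 genes were tested, and 1 of 7 promoters had an unadjusted p below 0.05. That was Runx1, the core binding factor of blood formation, at 0.0507% ± 0.0790 in PML-RARα and 0.142% ± 0.0970 in WT libraries (SD, n = 5 each; the ranges overlapped). Cebpa, Cebpb, Gfi1, Irf8, Klf4 and Cbfb were the others, and the 7 had PML-RARα means between 0.0325% and 0.160%. Of 15 genes on a list of retinoid genes and Pml, 7 genes with 9 promoters were tested. Rarb alone was below the unadjusted 0.05, and Rara, Rarg, Rxra, Rxrb, Dhrs3 and Stra6 were not. The list's median difference was -0.0303 points.

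Of 11 genes whose promoters are often methylated in leukaemia, 7 were tested, and none had a group mean above 2.24%. Cdkn1a, which encodes the cell cycle inhibitor p21, was listed at 0% in the 5 PML-RARα libraries and at 0.273% ± 0.257 in WT libraries (SD, n = 5). Its unadjusted p was 0.0281. Cdkn2a, Cdkn2b, Dapk1, Hic1, Id4 and Socs1 were the others. Of 14 cell cycle genes, 6 were tested. Ccne1, which encodes cyclin E1, had 0.0568% ± 0.0522 in PML-RARα and 0.126% ± 0.0875 in WT libraries (SD, n = 5 each). Of 16 genes of DNA methylation and Polycomb, 11 genes with 13 promoters were tested, and none had an unadjusted p below 0.05. The list's smallest p were those of Dnmt3a, the de novo methyltransferase (0.0771% and 0.186%), and Ezh2, the Polycomb methyltransferase (0% and 0.0479%). Of 15 progenitor genes, 7 genes with 9 promoters were tested. Gata2 had 0.155%, 0.0224%, 0%, 0.0455% and 0.145% in PML-RARα replicates 4, 6, 12, 14 and 20, and 0.0348%, 0.720%, 0.432%, 0.172% and 0.387% in WT replicates 2, 8, 10, 16 and 18. The groups overlapped through WT replicate 2, and the unadjusted p was 0.0217. The methylated WT reads of Gata2 lay mostly at 3 forward-strand cytosines 71, 77 and 128 bases before the start, with WT means of 1.81%, 1.44% and 1.53%. The second placed Gata2 promoter had 0.467% ± 0.479 and 0.160% ± 0.168 (SD, n = 5 each), which is the other direction.

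At imprinted genes some starts carry methylation on 1 parental allele. Of 16 listed genes, 4 genes with 5 promoters were tested. At Gnas, which encodes the stimulatory G protein subunit, a promoter of intermediate level had 38.9% ± 5.91 in PML-RARα and 42.7% ± 3.95 in WT libraries (SD, n = 5 each; unadjusted p 0.280). Plagl1 had 31.3% and 33.7%, and Zrsr1 had 40.1% and 38.4%. The other 2 were nearly unmethylated in both groups, with 0.645% and 0.697% at Grb10 and 0.0618% and 0.114% at the second Gnas promoter. The identity of the sorted cells could not be checked from promoters. Of 7 granulocyte precursor genes, Gfi1 alone was tested (0.0325% and 0.0985%), and no primary granule gene was among the tested promoters. Of the markers of other cells, Pax5 of B cells had 7.15% ± 6.37 and 4.84% ± 2.51, and Epor of erythroid cells had 53.3% ± 8.81 and 49.7% ± 3.10 (SD, n = 5 each). Neither had an unadjusted p below 0.05. No gene of the T cell, monocyte, megakaryocyte or non-blood lists was tested, so the part of other cells in the results below was not tested.

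The called window lies at chr13:44629001-44630000, between the placed starts of Gm33195, 669.6 kb to its left, and Jarid2, 196.6 kb to its right. Here and below, distances between a window and a start are taken from the middle of the window. Genes whose promoters were not placed may lie nearer. Jarid2 encodes a cofactor of the Polycomb complex that methylates histone H3. The window held 5 measured cytosines, with 350 to 1169 reads per CD34- library over them. The levels were 7.10%, 0.130%, 0.571%, 15.4% and 3.99% in PML-RARα replicates 4, 6, 12, 14 and 20. WT replicates 2, 8, 10, 16 and 18 had 46.1%, 30.8%, 38.1%, 36.7% and 36.7%. The highest PML-RARα library stood at less than the lowest WT library, and replicate 14 was the highest of its group. The means were 5.45% ± 6.26 and 37.7% ± 5.47 (SD, n = 5 each), a difference of -32.3 points (quasi-binomial test with limma-type moderation over all windows, adjusted p = 0.0333). In bulk libraries, fewer cells with the methylated state and less methylation in each cell cannot be told apart.

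The call depended on the fit. The difference is one of group means, so it could not move where only the fit changed. No difference adjusted for the flowcell was estimated. The difference lay between -28.6 and -34.7 points over the alternatives that gave the window a value, and it moved only where libraries, cytosines or reads were changed. The adjusted p was 0.407 with limma on log ratios, 0.851 with edgeR, 0.712 with the 2 CD34- groups fitted alone and 0.230 with the flowcell as a factor. Without PML-RARα replicate 6 it was 0.0474, and without replicate 14 it was 0.00394. Without PML-RARα replicates 4, 12 or 20 it was 0.282, 0.0829 and 0.133. Without WT replicates 2, 8, 10, 16 or 18 it was 0.152, 0.0550, 0.0972, 0.0947 and 0.0643. Within flowcells the difference was -30.2 points (3 PML-RARα and 2 WT libraries) and -27.0 points (2 and 1).

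**Figure D2:**
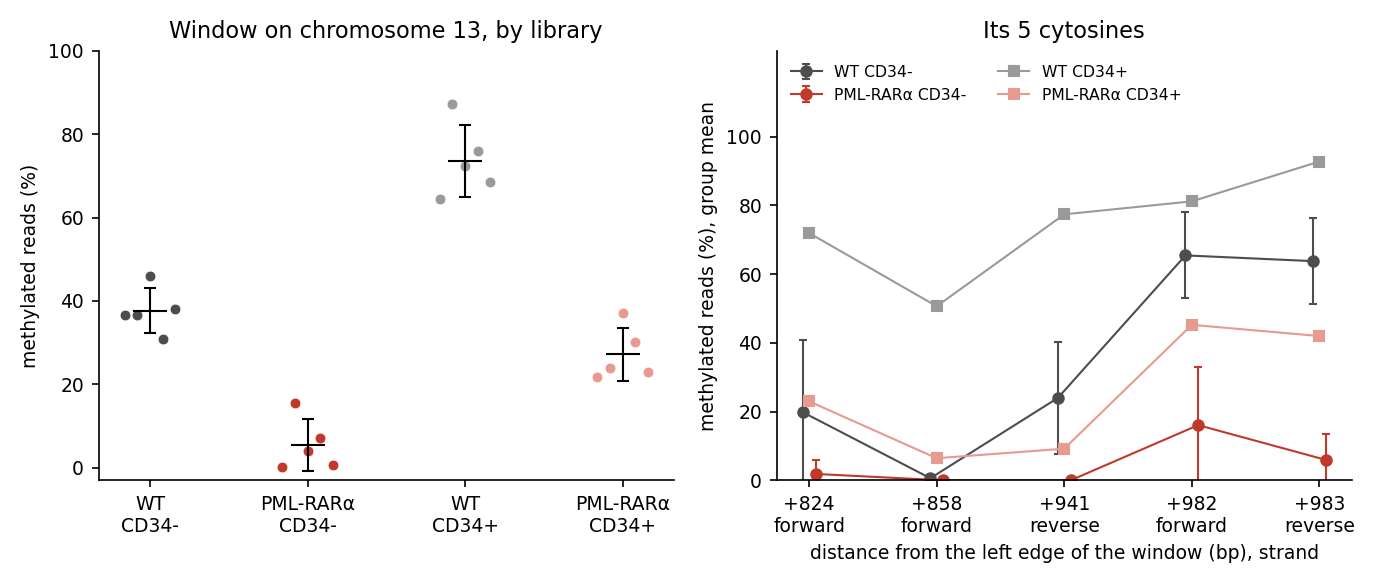
Methylation of the called window on chromosome 13. Left, each point is 1 library (percent of reads methylated), with the group mean and SD as bars. Right, group means at the 5 cytosines by distance from the left edge of the window, with SD for the CD34- groups. The 5 PML-RARα CD34- libraries lie between 0.130% and 15.4%, below the WT CD34- libraries at 30.8% to 46.1%.

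The 5 cytosines of the window differed in level. A pair on opposite strands of 1 CpG, at positions 44629983 and 44629984, carried most of the methylation of WT cells. They had 65.5% and 63.8% in WT and 16.1% and 5.96% in PML-RARα libraries. At 44629942 the means were 24.0% and 0%, and at 44629825 they were 19.8% and 1.86%. At 44629859 both groups were nearly unmethylated, with 0.614% in WT and 0% in PML-RARα libraries. The CD34+ libraries were higher at the window in both genotypes. They had 24.0%, 37.1%, 30.1%, 23.0% and 21.8% in PML-RARα replicates 3, 5, 11, 13 and 19, and 87.1%, 72.3%, 75.9%, 68.5% and 64.4% in WT replicates 1, 7, 9, 15 and 17. The means were 27.2% ± 6.41 and 73.6% ± 8.66 (SD, n = 5 each), a difference of -46.4 points. The genotype difference was thus in the same direction in both fractions, and its size was not shown to differ between them (interaction of genotype and fraction, adjusted p = 0.992).

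The windows around the called one differed less. The window directly to the left had 21.7% ± 12.7 in PML-RARα and 30.4% ± 12.7 in WT libraries, and the window directly to the right had 7.45% ± 2.14 and 11.2% ± 4.01 (SD, n = 5 each). Neither had an unadjusted p below 0.05 in CD34- cells. The next measured windows on either side of this low stretch were highly methylated in both groups, with 90.4% and 87.6% in the one that starts at 44614001 and 92.4% and 89.7% in the one that starts at 44638001. At the 2 placed Jarid2 promoters the means were 0.0378% and 0.0241%, and 0% and 0.0572%, in PML-RARα and WT libraries. The surrounding windows of this and of 3 other named windows are shown in the plot by distance.

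**Figure D3:**
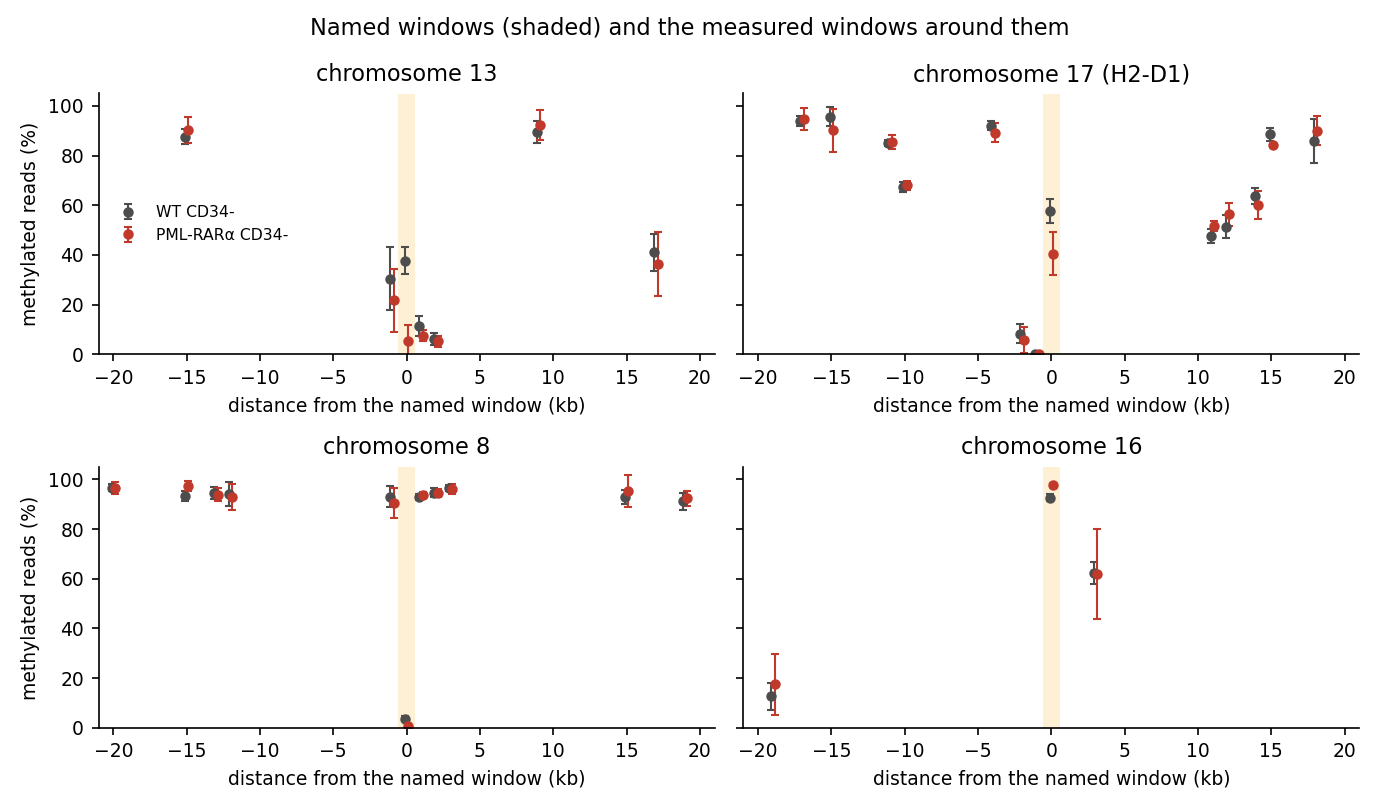
Mean methylation (percent of reads, bars are the SD over 5 libraries) of 4 named windows, shaded, and of the measured windows within 20 kb of them, by distance in kb. The chromosome 13 window differs between 5.45% and 37.7%, while the windows directly beside it have 21.7% and 30.4%, and 7.45% and 11.2%.

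A further 4 lower windows and 5 higher windows had the smallest p in their direction, and each had an adjusted p of 0.247. Over all windows, 10671 had an unadjusted p below 0.05 (7.89%), in nearly equal numbers lower (5368, 3.97%) and higher (5303, 3.92%). In 591 windows (0.437%) each PML-RARα library was below each WT library, and in 671 (0.496%) each was above. The window chr2:33831001-33832000 had 73.0%, 70.8%, 78.8%, 80.5% and 74.9% in PML-RARα replicates 4, 6, 12, 14 and 20, and 87.8%, 86.5%, 91.8%, 94.2% and 93.0% in WT replicates 2, 8, 10, 16 and 18. The groups did not overlap (75.6% ± 4.00 and 90.7% ± 3.36; SD, n = 5 each). The CD34+ means were 85.7% in both genotypes, and the interaction of genotype and fraction had an unadjusted p of 0.000319 and an adjusted p of 0.810. The window chr11:52308001-52309000 had 76.1% ± 5.86 and 90.9% ± 4.47 (SD, n = 5 each), also without overlap, and 83.8% and 87.0% in CD34+ cells. Of its 3 cytosines, the one at 52308215 went the other way, with 95.8% in PML-RARα and 85.6% in WT libraries. The window directly to the left of chr11:52308001-52309000 had 84.4% ± 12.3 and 93.3% ± 3.43 (SD, n = 5 each).

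The window chr17:35401001-35402000 lies 1.5 kb downstream of the start of H2-D1, which encodes a heavy chain of major histocompatibility complex class I. It had 32.3%, 31.4%, 51.2%, 42.3% and 45.8% in PML-RARα replicates 4, 6, 12, 14 and 20. WT replicates 2, 8, 10, 16 and 18 had 50%, 59.5%, 60.8%, 56.5% and 62.0%. The groups overlapped through PML-RARα replicate 12 and WT replicate 2 (40.6% ± 8.60 and 57.8% ± 4.79; SD, n = 5 each). Each of its 5 cytosines was lower in PML-RARα cells, with differences from -22.9 to -11.9 points. In CD34+ cells the means were 45.4% ± 7.98 and 58.0% ± 5.55, which is the same direction. The CpG-rich window to its left, with 75 cytosines, was unmethylated in both groups (0.186% and 0.154%). The H2-D1 promoter had 0.129% and 0.132%.

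The window chr8:97631001-97632000 was a CpG-rich stretch of 19 cytosines, nearly unmethylated beside windows of 90.7% to 94.6%. It had 0.631%, 0.105%, 1.53%, 1.03% and 1.24% in PML-RARα replicates 4, 6, 12, 14 and 20, and 3.69%, 2.90%, 5.31%, 2.67% and 3.98% in WT replicates 2, 8, 10, 16 and 18. The groups did not overlap (0.907% ± 0.555 and 3.71% ± 1.04; SD, n = 5 each). The forward-strand cytosine at 97631386 stood out, with 9.28% and 30.7%, and the rest had WT means of 5.91% or less. The CD34+ means were 4.33% ± 1.77 and 7.11% ± 2.44, a difference of -2.78 points beside -2.80 points in CD34- cells.

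**Figure D4:**
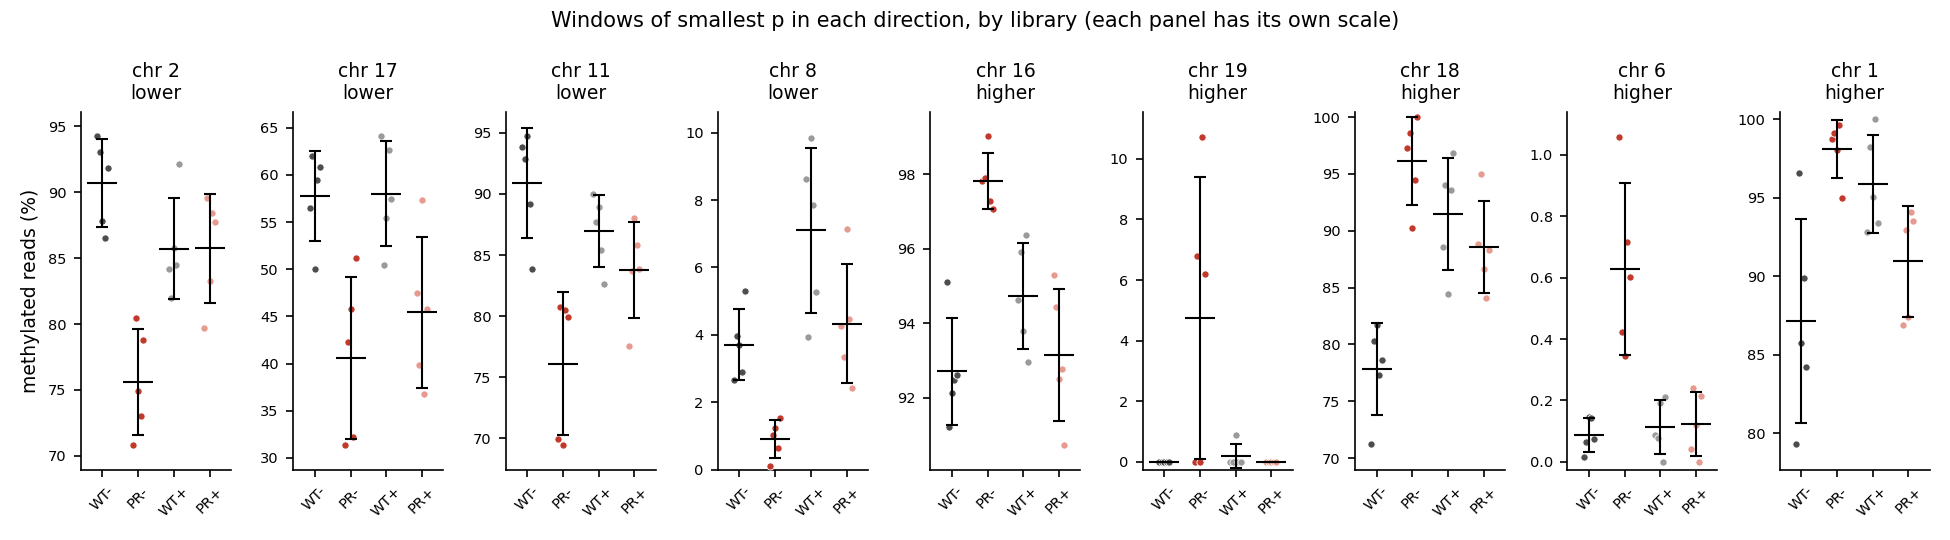
Methylation (percent of reads) of the other 9 named windows by library, with the group mean and SD, where PR is PML-RARα and the sign after it the CD34 fraction. Each panel has its own scale. The CD34- groups of the chromosome 18 window stand apart (71.3% to 81.7% in WT, 90.2% to 100% in PML-RARα), while its CD34+ groups overlap.

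Of the 5 higher windows, chr18:54438001-54439000 had the largest difference. Its levels were 94.5%, 97.3%, 100%, 98.6% and 90.2% in PML-RARα replicates 4, 6, 12, 14 and 20, and 81.7%, 77.3%, 78.6%, 71.3% and 80.3% in WT replicates 2, 8, 10, 16 and 18. The groups did not overlap (96.1% ± 3.88 and 77.8% ± 4.03; SD, n = 5 each). In CD34+ cells the order was the other way, with 88.6% ± 4.05 and 91.5% ± 4.92 (interaction of genotype and fraction, adjusted p = 0.626). The window rests on 3 cytosines with 94 to 552 reads per library. The window chr16:84546001-84547000 had 97.8% ± 0.757 and 92.7% ± 1.45 (SD, n = 5 each) without overlap, and 93.2% and 94.7% in CD34+ cells. At chr1:145007001-145008000 the means were 98.1% ± 1.85 and 87.1% ± 6.48, and the groups overlapped. The CD34+ means were 91.0% and 95.9%, which is the other direction (interaction of genotype and fraction, unadjusted p 0.000210, adjusted p = 0.786).

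The other 2 higher windows were low in methylation. The window chr6:87930001-87931000 lies 1.0 kb from the start of H1f10, which encodes a linker histone, and held 37 cytosines with 3486 to 6268 reads per library. It had 0.717%, 1.06%, 0.601%, 0.424% and 0.344% in PML-RARα replicates 4, 6, 12, 14 and 20, and 0.145%, 0.144%, 0.0740%, 0.0163% and 0.0638% in WT replicates 2, 8, 10, 16 and 18. The groups did not overlap (0.629% ± 0.281 and 0.0887% ± 0.0556; SD, n = 5 each), and the CD34+ means were 0.124% and 0.114%. The difference was uneven over its cytosines. The highest PML-RARα means were 3.85% ± 8.60 at 87930932, 3.66% ± 7.95 at 87930860 and 3.15% ± 6.84 at 87930888, each with an SD above the mean. Many others read 0% in both groups, and some were slightly lower in PML-RARα cells. The window chr19:12076001-12077000, 36.2 kb from the start of Osbp, held 4 forward-strand cytosines. It was listed at 0% in the 5 WT libraries and in PML-RARα replicates 6 and 20. PML-RARα replicates 4, 12 and 14 had 10.7%, 6.20% and 6.80%, with 523, 484 and 103 reads. Without PML-RARα replicate 6 its adjusted p was 0.0474, with a difference of 5.93 points.

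Apart from the chromosome 13 window, the windows with the largest differences were not those of smallest p. Differences of at least 20 points were found in 99 lower and 59 higher windows, and of at least 30 points in 2 lower and 7 higher windows. Apart from the chromosome 13 window, the other 8 windows of at least 30 points had between 3 and 4 cytosines and unadjusted p between 0.000104 and 0.209. The largest, which starts at 69027001 on chromosome 3, had 58.6% ± 28.3 in PML-RARα and 16.8% ± 8.52 in WT libraries (SD, n = 5 each). Its PML-RARα libraries ranged from 38.2% to 100% and its WT libraries from 5.83% to 28%. The CD34+ libraries of the same window differed by -1.06 points. Over the 8 windows, which were chosen for their size after the values had been seen, the CD34+ differences lay between -8.44 and 6.88 points.

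The called cytosine lies at position 69753918 of chromosome 11 on the reverse strand, 4.1 kb from the start of Ybx2, which encodes a germ cell RNA-binding protein. Its level was 100% in the 5 WT libraries, with 72 to 114 reads. PML-RARα replicates 4, 6, 12, 14 and 20 had 75.0%, 100%, 71.2%, 95.8% and 70%, with 40, 12, 132, 24 and 40 reads. Replicate 6 was at the WT level, and the groups overlapped. The means were 82.4% ± 14.4 and 100% (SD, n = 5 for the first), with an adjusted p of 0.0165 in the quasi-binomial test with limma-type moderation over all cytosines. The CD34+ means were 99.9% and 98.2%. The cytosine of the same CpG on the forward strand, at 69753917, differed by -0.498 points between the group means. With the strands of each CpG summed no CpG was called. The cytosine was not called with 2 groups fitted (adjusted p = 0.288), nor without PML-RARα replicate 4 (0.0809), 12 (0.209) or 20 (0.0692), nor without WT replicate 10 (0.139) or 16 (0.0517). Over all cytosines, 155983 had an unadjusted p below 0.05 (8.46%).

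The windows of the CD34- comparison were then read in the CD34+ libraries, whose levels had not been used to choose them, although the 4 groups share 1 estimate of overdispersion. Of the 835 windows lower in PML-RARα CD34- cells with an unadjusted p below 0.05 and at least 10 points, 832 had CD34+ values. In 512 (61.5%) the CD34+ difference was also below 0, as it was in 54.2% of all windows and in 55.3% of windows of 20 to 80%. The median CD34+ difference of these windows was -1.59 points, beside -12.7 points in CD34- cells. Of 671 higher windows with CD34+ values, 321 (47.8%) were higher in CD34+ cells, as were 45.7% of all windows. Their median CD34+ difference was -0.496 points. The interaction of genotype and fraction was tested in 135065 windows, and no window passed (smallest adjusted p 0.580 in the quasi-binomial test with limma-type moderation). At an unadjusted p below 0.05 there were 7020 windows (5.197%). This test takes the 20 libraries as independent. The titles run in consecutive numbers of the same genotype, CD34+ and then CD34-, and the labels do not say whether such a pair of libraries came from the same mouse.

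Among 135065 windows with CD34+ values, 832 lower and 671 higher ones passed in CD34- cells. Of those, 52 lower and 7 higher windows passed in both fractions, with an unadjusted p below 0.05 and at least 10 points in each. The share of all windows that pass this rule in CD34+ cells is not given here, so the counts are not read as an excess in either direction. The counts were 58 and 10 without 5 libraries of high scatter, and 45 and 4 without WT replicate 2. The 52 lower windows lay on 19 chromosomes and had a median WT level of 58.4% and a median of 5 cytosines. Of them, 8 (15.4%) lay within 2 kb of a placed start, beside 13.0% of all windows. Among windows of 20 to 80% over the 10 CD34- libraries the share was 5.72%. None of the 7 higher windows lay so near to a placed start. The CD34- groups did not overlap in 10 of the 52 and in 1 of the 7. Over all windows, the shares were 0.437% for lower and 0.496% for higher. The 52 and the 7 were chosen by p and difference in the same CD34- libraries, so their lack of overlap adds no support. The windows below were picked from the 52 and the 7 after their values had been seen. The first 2 are the lower windows with the most cytosines among those without overlap. The window chr6:88102001-88103000 holds the placed start of Gm38856, and its middle lies 41.4 kb upstream of the placed start of Gata2. It had 17.7%, 20.7%, 40.7%, 44.6% and 37.5% in PML-RARα replicates 4, 6, 12, 14 and 20, and 47.2%, 47.9%, 59.95%, 60.7% and 53.7% in WT replicates 2, 8, 10, 16 and 18. The groups did not overlap (32.2% ± 12.2 and 53.9% ± 6.39; SD, n = 5 each), and the CD34+ means were 35.9% and 49.9%.

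The window chr2:57986001-57987000 held 14 cytosines and lies 223.7 kb from the start of Acvr1c. It had 19.4%, 22.2%, 28.8%, 16.3% and 23.6% in PML-RARα replicates 4, 6, 12, 14 and 20, and 58.6%, 38.2%, 46.6%, 29.5% and 37.7% in WT replicates 2, 8, 10, 16 and 18. The groups did not overlap (22.04% ± 4.68 and 42.1% ± 11.0; SD, n = 5 each), and the CD34+ means were 27.1% and 58.4%. Of the 7 higher windows, the one at chr1:191405001-191406000 did not overlap (89.9% ± 3.70 and 75.3% ± 3.81; SD, n = 5 each).

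**Figure D5:**
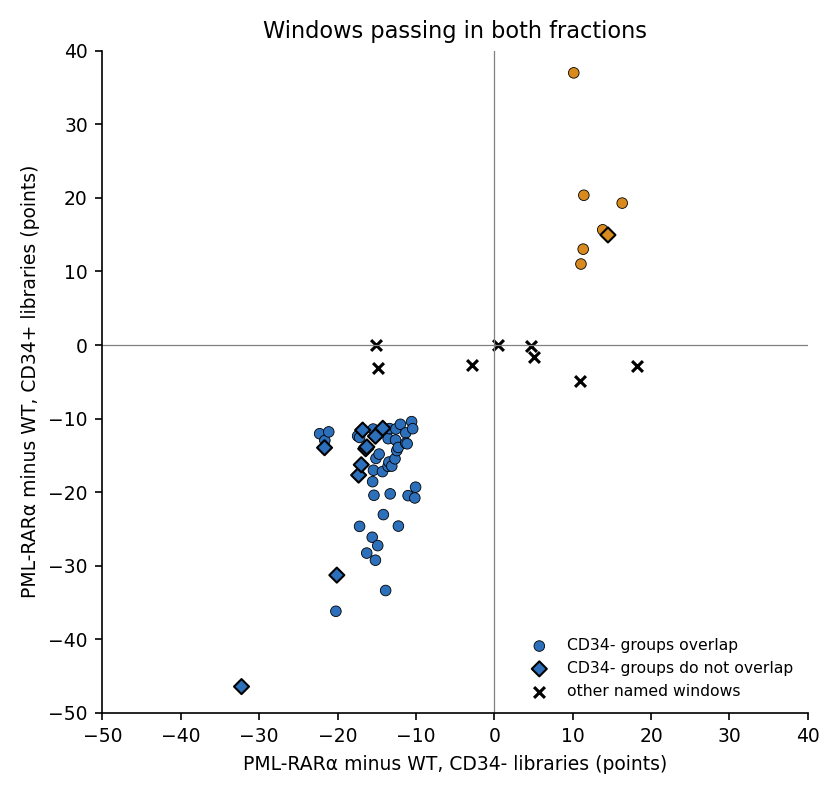
Difference between PML-RARα and WT group means (percentage points) in CD34- libraries (x axis) and CD34+ libraries (y axis). Points are the 52 lower and 7 higher windows that passed in both fractions, with diamonds where the CD34- groups do not overlap, and crosses are the other 8 named windows. The chromosome 13 window lies farthest out, at -32.3 and -46.4 points.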

How the data were processed

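Libraries were ERRBS of genomic DNA, processed with CASAVA 1.8.2 and Bismark on the mm9 build, per the submitters' processing notes. Per the file headers, each deposited table gives a coverage count per cytosine and the percent of reads with C and with T. Methylated counts were recovered from the deposited coverage and percent values, and a level is C over C plus T. Cytosines on autosomes with at least 10 reads in at least 4 of 5 libraries of each CD34- group were summed over 1 kb windows with at least 3 of them.

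Each window, cytosine or promoter was tested with a quasi-binomial logistic model over the 20 libraries in 4 groups. Its overdispersion was moderated as in limma and not allowed below 1, and p-values were adjusted by Benjamini-Hochberg over all features. Called means an adjusted p below 0.05 and at least 10 points. The test was tested on simulated data, where the share of unchanged windows below p 0.05 also exceeded the nominal level, so shares are read against those over all features. At simulated windows of intermediate level, 14% of lower and 11% of higher differences of 10 points were called. Of those of 20 points, 65% and 50% were called. The simulated set held 100 changed windows for each size and direction and gave 357 calls. With 1 window called in the real data, the adjusted threshold asks for a smaller unadjusted p. The simulated shares therefore do not carry over, and fewer differences of these sizes may be called in the real data. Most differences near 10 points would therefore not be called. Single library values were compared by exact permutation of the 10 labels, whose smallest p is 0.00794. Windows named are the called ones and those of smallest p, up to 5 in a direction. Promoters named are the 5 of smallest p in each direction, and list members with p below 0.05 or else the 2 of smallest p. Promoters were placed by a unique match in spacing of at least 6 CpGs, or of more CpGs where 6 matched at several places. RefSeq coordinates were used only for gene order, and 113 promoters placed out of that order were dropped. No promoter sequence of chromosome 18 was used. The comparison and the lists were chosen with earlier results of these data known. Python 3.11.15, numpy 2.4.6, scipy 1.17.1, pandas 2.3.3, R 4.3.3, limma 3.58.1 and edgeR 4.0.16 were used. Reads without molecular identifiers are not independent molecules, so read numbers state counting depth only.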

Additional observations from a re-analysis of the deposited data

Results flagged for a closer look

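In 112 groups of 5 libraries, 6 held a library whose distance from the nearest of the others was more than 0.71 of the range of the group. Chance gives about 1 in 20 groups. The methylated share of mitochondrial reads was 0.203% in PML-RARα CD34- replicate 12. The chr19:12076001-12077000 window had 0.887% in WT CD34+ replicate 7 and 0% in the other libraries of that group. The Cbfa2t3 promoter had 0.309% in PML-RARα CD34- replicate 20, and the Runx1 promoter had 0.187% in PML-RARα CD34- replicate 4. In WT CD34- replicate 2 the Rarb promoter had 0.0496% and a Dnmt3a promoter had 0.592%.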

How the results depend on the processing

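The number of called windows was 0 without moderation of the overdispersion, with 2 groups fitted, with limma, with edgeR, with the flowcell as a factor, with the number after the # sign in the titles as a factor, without PML-RARα replicates 6 and 12 together, with all 20 libraries covered and with reads thinned to 30, and it was 0 to 2 without single libraries. At an unadjusted p below 0.05 limma left 5954 windows and edgeR 4192. The second window called without PML-RARα replicate 14, which starts at 70075001 on chromosome 13, was higher by 11.5 points. Called cytosines were 0 with 2 groups fitted and 0 with both strands summed, and 0 to 5 without single libraries, with 5 without WT replicate 2. Called promoters were 0 to 1 without single libraries. The 1 promoter, called without WT replicate 2, was that of Medag, with 71.2% in PML-RARα and 55.3% in WT libraries (adjusted p = 0.0426 in the model with limma-type moderation). The difference at windows of 20 to 80% lay between -0.382 and 0.0948 points without single libraries, with 0.0948 without WT replicate 18 and 0.0440 without WT replicate 2. Mean methylation kept its direction in its 13 alternatives. The scatter had an exact permutation p of 0.0397 without PML-RARα replicate 14, and the share of cytosines read near 0 or 100% had 0.0159 without replicate 14, 0.0317 without replicate 20 and 0.0556 to 0.127 without each of the other 8 libraries, where its difference lay between 3.23 and 6.85 points. Windows lower in both fractions numbered 45 to 67 and higher ones 4 to 10 over their alternatives, which, like those for promoters, were chosen after seeing the data, and the 4 came without WT replicate 2. No paired analysis was possible because the compared CD34- groups share no replicate numbers. Between the fractions, the libraries of consecutive title numbers had correlations of -0.0560 to 0.240 in their deviations from the group means (10 pairs, 21343 windows), over 0.1 in 3 pairs, and 4 CD34- libraries correlated best with their own number. With a replicate block for these numbers, chosen after seeing the data, the interaction of genotype and fraction had 1 called window and 8312 of an unadjusted p below 0.05. The 1 window, which starts at 29135001 on chromosome 17, had 92.6% and 92.5% in PML-RARα and WT CD34- and 96.5% and 75.6% in CD34+ cells, where WT replicate 1 had 0% of 129 reads and the other WT libraries 91.4% or more.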
